A study of Mus musculus with 6 samples.

Results

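The pseudogenes measured in KYSE30 cells are the 135 genes, of 4195 in the deposited table, whose annotated biotype holds the word pseudogene. They were split by name into 27 ribosomal-protein pseudogenes, whose symbol starts RPL or RPS, and 108 others, and then by their mean over the 6 libraries. KYSE30 is an established human cell line from an oesophageal squamous cell carcinoma. Its cells, labelled WT, were either exposed to 100 uM acetylcholine for 4 h (the ACh group, 3 libraries) or labelled Control at 4 h (3 libraries), and the series asks which genes differ between these groups. Both groups grew in the same medium with fetal bovine serum and antibiotics, all libraries come from the 1 line, no vehicle is named for the Control cells, and nothing says that the libraries of a group came from separate cultures. The p-values below therefore measure the spread between these libraries, which may be technical.

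A pseudogene is a genomic copy of a gene that has lost the ability to make the full protein. Processed pseudogenes arise when a messenger RNA is copied back into DNA and inserted elsewhere, so they lack introns and usually the promoter of the parent gene. Unprocessed pseudogenes come from duplication of a stretch of chromosome and keep the exon and intron layout of the parent. Messenger RNAs that are abundant in the germ line, those of ribosomal proteins above all, left the most processed copies in the human genome, and some of these differ from the parent at few bases. The sources used here do not say how reads that match several places were counted, so the value of a pseudogene may hold reads of its parent or of another copy, and every pseudogene value below is uncertain in that respect.

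The values are normalised read counts, and they summed to between 10519515 and 11468978 over the listed genes of a library, while the raw depth is not given in the sources used here. The table lists only genes with an unadjusted p under 0.05 in the authors' own comparison, so pseudogenes that did not reach it were not analysed here and each one described was listed because it differed. Of 12 squamous epithelial markers, DSG3, DSP, SOX2 and TP63 were listed, with a summed level of 14742 to 15141 in ACh libraries and 14385 to 14758 in Control libraries. Single markers of other cell types were listed too: COL1A1 of fibroblasts at 133 to 147 in ACh and 146 to 193 in Control, LAPTM5 of immune cells at 31.1 to 48.2 in ACh and 17.7 to 21.3 in Control, and EGFL7 of endothelium at 818 to 970 in ACh and 1052 to 1081 in Control. Their part in the pseudogene results was not tested. The labels name mouse as the organism, whereas the gene identifiers are human.

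In ACh-stimulated cells the abundant pseudogenes of ribosomal proteins were mostly lower, and most of the pseudogenes with low counts were higher. The called changes were of both signs and about equal in number. A change was called where limma on log2(value + 1), with Benjamini-Hochberg adjustment over the 4195 genes, and the authors' deposited adjusted p were both under 0.05. By that rule 18 pseudogenes rose and 17 fell in ACh, so 35 of 135 were called, beside 63.8% of all listed genes (28.8% higher and 35.0% lower). That background split depends on the scaling: higher genes were 45.1% of the called ones as deposited and 54.9% with equal totals over the listed genes, where 18 pseudogenes were higher and 16 lower. The deposited adjusted p was exactly 1 for 76 pseudogenes, all with a mean of at most 78.0, and these could not be called at all. Among the 59 that could be, 35 were called, beside 67.6% of all listed genes of that kind (30.5% higher and 37.1% lower), so the members' share is near the background. By limma alone 133 of the 135 passed, beside 99.6% of all listed genes, so that test by itself separates few members. The authors' adjusted p alone passed 2678 listed genes, and both tests together 2677. It also gave the same counts of 18 and 17 pseudogenes, so it decided almost every call. The limma adjusted p-values below cover only genes already listed for differing, so they overstate the evidence for each gene.

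Of the 27 ribosomal-protein pseudogenes 4 rose, 7 fell and 16 were not called, 12 of which could not be called. Of the 108 others 14 rose, 10 fell and 84 were not called, 64 of which could not be called. In 112 of the 135 pseudogenes the ACh and Control libraries did not overlap, where the share over all listed genes was 93.0%. The mean was higher in ACh for 90 of the 135, which is 66.7%, beside 48.3% of all listed genes. The median log2 fold change of the 127 pseudogenes with counts in both groups was 0.48, and that of the 4167 listed genes with counts in both groups was -0.10.

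The direction differed by level. Of the 10 pseudogenes with a mean of 1000 or more, 2 had the higher mean in ACh, beside 43.7% of the other listed genes at that level. From 100 to under 1000 it was 24 of 42 pseudogenes, beside 53.5%, and from 20 to under 100 it was 33 of 45, beside 44.4%. Under 20 it was 31 of 38 pseudogenes, beside 55.7%. In the highest class 8 of the 10 are ribosomal protein copies by name or description, of which 1 was higher. Protein-coding ribosomal protein genes at that level were higher in 6 of 54. Pseudogenes without such a name or description were higher in 28 of 34, 19 of 26, 15 of 27 and 1 of 2, from the lowest class up. These are descriptions of listed genes with no test, and at the lowest levels only large differences could enter the table. The members next to the upper limit were AC116533.1, with a mean of 1083, and RPL15P3, with a mean of 986.

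**Figure D1:**
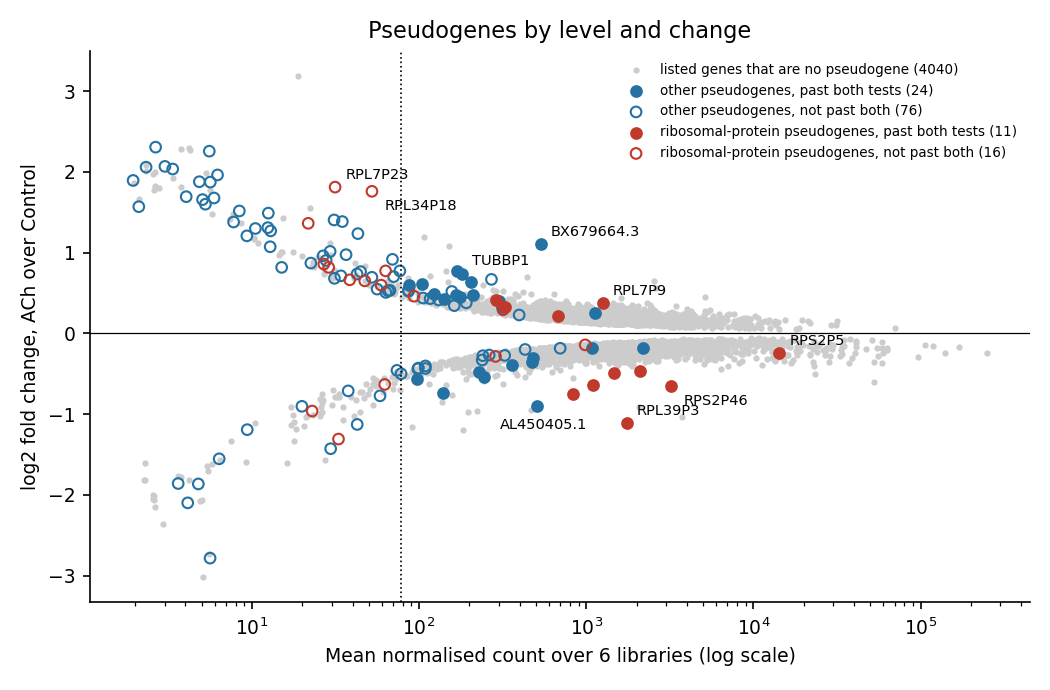
Mean normalised count over 6 libraries (x axis, log scale) against the limma log2 fold change of ACh over Control (y axis) for 127 pseudogenes and 4040 other listed genes with counts in both groups. Filled points are pseudogenes past both tests, open points are those not past both, and the dotted line marks the mean of 78.0 up to which the authors gave no adjusted p below 1. Abundant ribosomal-protein pseudogenes lie mostly under 0, and the open points at low counts lie mostly above 0.

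**Figure D2:**
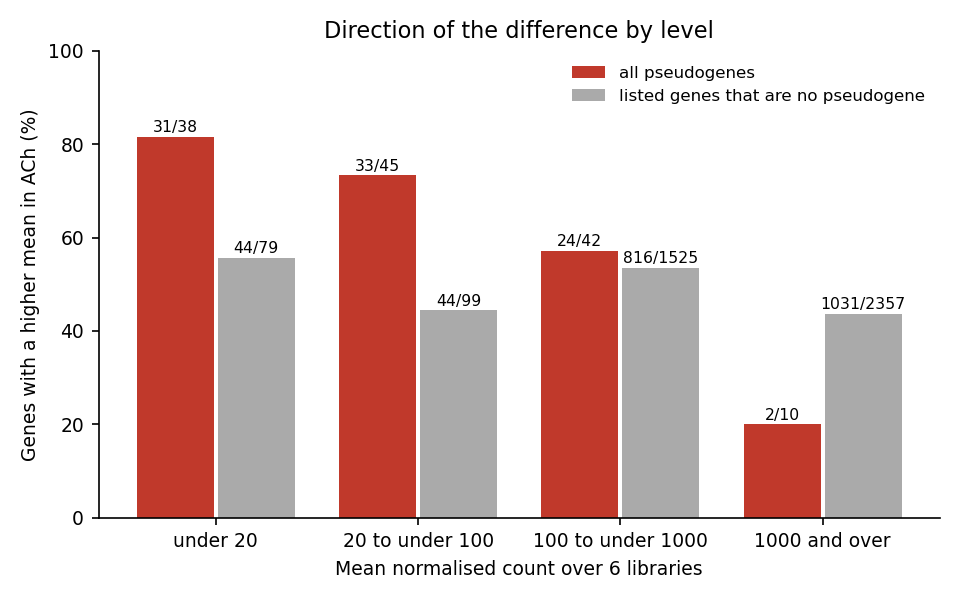
Share of genes with the higher mean in ACh (y axis, percent) by mean normalised count over 6 libraries (x axis, 4 classes), for the 135 pseudogenes and for the listed genes that are no pseudogene. The numbers over the bars are genes higher in ACh and genes in the class, and the pseudogene share goes down with level, with 31 of 38 in the lowest class and 2 of 10 in the highest. Of those 10, 8 are ribosomal protein copies.

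RPS2P5, a processed copy of the small-subunit gene RPS2, held 31.7% of the summed pseudogene count. It lies on chromosome 12 at 118246084 to 118246962 on the plus strand, as the file gives it (the human build is not given in the sources used here). Its normalised counts were 12476, 12958 and 13651 in ACh libraries, against 15375, 16047 and 14936 in Control libraries. Every ACh library lay under every Control library. RPS2P5 fell by 0.25 on the log2 scale, with an SE of 0.04 and a limma adjusted p of 3.08e-05. With a trend in the GC share of the parent's mouse counterpart removed over all genes (the GC trend), the value was -0.07 and RPS2P5 was not called (limma adjusted p = 0.207).

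A second copy of RPS2, RPS2P46 on chromosome 17 at 19445970 to 19446852, fell as well. It had 2611, 2650 and 2286 normalised counts in ACh, against 3576, 4272 and 4009 in Control, with no overlap. The log2 fold change was -0.65 with an SE of 0.05 (limma adjusted p = 3.52e-08). The parent RPS2, which encodes a protein of the decoding subunit of the ribosome, averaged 46213 ± 2153 in ACh and 59436 ± 4337 in Control (SD, n = 3 each) and fell by 0.36 (SE 0.05). RPS2P46 overlaps the listed lincRNA AC004448.2 on the same strand, so the reads of these genes may be mixed.

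RPL39P3 showed the largest fall among the called pseudogenes. It is a processed copy of RPL39, whose small protein sits by the exit tunnel of the large subunit, and it lies on chromosome 6 at 73373108 to 73373263. The counts were 1085, 1105 and 1118 in ACh libraries, against 2239, 2413 and 2517 in Control libraries. The ACh mean was thus 0.462 of the Control mean, in 3 tightly grouped libraries, and the log2 fold change was -1.11 with an SE of 0.04 (limma adjusted p = 1.62e-13). RPL39 itself is not among the listed genes, so no ratio to the parent was taken.

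The other called falls of ribosomal-protein pseudogenes were in copies of large-subunit genes. RPL18AP3 had 1863, 1900 and 1527 in ACh, against 2562, 2478 and 2275 in Control, a log2 fold change of -0.47 (SE 0.06, limma adjusted p = 5.87e-06). It lies within TXNRD1 on the same strand, and reads of that gene cannot be told apart from its own where the sequences match. RPL6P27 had 1220, 1283 and 1131 in ACh, against 1685, 1813 and 1605 in Control, a log2 fold change of -0.49 (SE 0.05, limma adjusted p = 7.83e-07).

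RPL13AP5 and RPL13P12, which copy a pair of unrelated large-subunit genes despite their like names, also fell. RPL13AP5 had 841, 868 and 865 in ACh, against 1155, 1441 and 1440 in Control (log2 fold change -0.64, SE 0.07, limma adjusted p = 5.69e-07). RPL13P12 had 679, 698 and 491 in ACh, against 1050, 1099 and 974 in Control (log2 fold change -0.76, SE 0.09, limma adjusted p = 2.93e-06). In all 7 called falls of ribosomal-protein pseudogenes the ACh and Control libraries were apart.

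Called rises of ribosomal-protein pseudogenes were 4, between 0.22 and 0.42 on the log2 scale. RPL7P9 was the only one with a mean of 1000 or more that rose, with 1513, 1572 and 1176 in ACh, against 1086, 1041 and 1129 in Control (log2 fold change 0.38, SE 0.07, limma adjusted p = 0.000231), and the value was 0.21 with the GC trend removed. The lowest ACh library was close to the highest Control library. RPL7, a large-subunit protein gene, was not listed. A second copy, RPL7P23, had 56.8, 39.6 and 52.4 in ACh, against 12.8, 13.2 and 13.8 in Control, but its deposited adjusted p was 1 and it was not called.

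RPS28P7, a copy of a small-subunit gene, had 306, 294 and 393 in ACh, against 281, 208 and 253 in Control, and its groups were apart by a narrow gap. It rose by 0.42 on the log2 scale (SE 0.12, limma adjusted p = 0.00304). RPL3P4, a copy of the gene for a core large-subunit protein, had 761, 662 and 758 in ACh, against 609, 653 and 610 in Control (log2 fold change 0.22, SE 0.07, limma adjusted p = 0.005). Its lowest ACh library lay just above its highest Control library. RPL21P16 had 371, 412 and 306 in ACh, against 285, 320 and 262 in Control, a rise of 0.32 (SE 0.10, limma adjusted p = 0.00691) whose groups overlapped. Without ACh replicate 2 the value was 0.23 and with the GC trend removed 0.28, and RPL21P16 was not called in either. The authors' deposited adjusted p was larger than that of limma, at 0.0183 for RPS28P7, 0.039 for RPL3P4 and 0.0445 for RPL21P16.

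RPL3P4 has a neighbour that also resembles RPL3. AL162151.2, described in the file as similar to part of RPL3, starts 12 bases from RPL3P4 on the opposite strand of chromosome 14. It had 7.51, 3.39 and 6.29 in ACh, against 2.96, 0 and 0 in Control, and its deposited adjusted p was 1. Whether the library kit kept the strand is not stated, so reads of the 2 genes may not be separable.

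**Figure D3:**
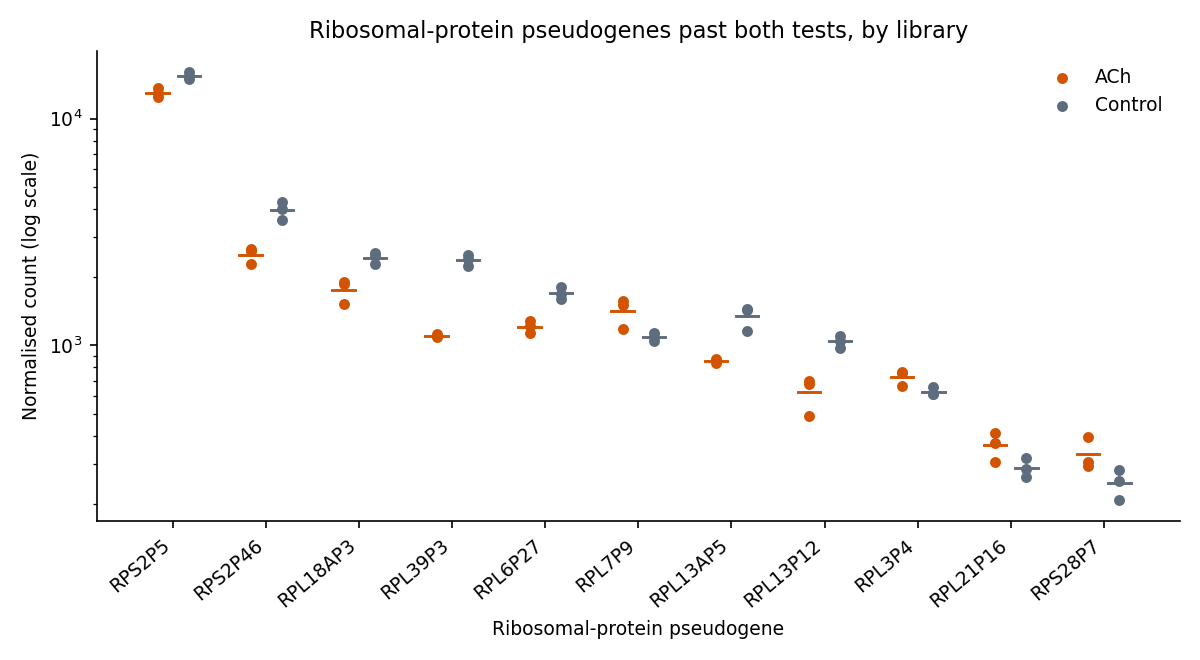
Normalised count in each library (y axis, log scale) of the 11 ribosomal-protein pseudogenes past both tests (x axis, by falling mean), with ACh libraries left of Control libraries and a bar at each mean of 3. RPS2P5 lies at 12476 to 13651 in ACh and 14936 to 16047 in Control, and the groups overlap in RPL21P16 alone.

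The 7 ribosomal-protein pseudogenes with a mean of 1000 or more had a median log2 fold change of -0.49. The 7 from 100 to under 1000 had a median of 0.22 and the 13 from 20 to under 100 a median of 0.66. In that last class 10 of 13 had the higher mean in ACh. None was called, but 12 of the 13 could not be called. RPL34P18 had 96.5, 75.8 and 69.2 in ACh, against 34.5, 21.3 and 16.1 in Control. RPL35P1 went the other way, with 20.4, 18.1 and 16.8 in ACh, against 42.4, 57.8 and 42.2 in Control. The protein-coding ribosomal protein genes that served as the pathway list were 57, of which 5 rose, 45 fell and 7 were not called, with a median log2 fold change of -0.19.

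Another 19 pseudogenes carry clone names but are described in the file as copies of ribosomal protein genes. Of these 4 rose, 3 fell and 12 were not called, 9 of which could not be called. BX679664.3, an RPL17 copy on chromosome 1 at 108992282 to 108992836, had 664, 718 and 802 in ACh, against 351, 345 and 316 in Control. By limma the ACh level was 2.15-fold the Control level with no overlap, the largest called rise of any pseudogene (log2 fold change 1.10, SE 0.08, limma adjusted p = 3.21e-09). AC004057.1, a copy of the small-subunit gene RPS26, followed with 219, 252 and 166 in ACh, against 110, 126 and 134 in Control (log2 fold change 0.77, SE 0.14, limma adjusted p = 0.00012).

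AC007969.1, a copy of RPS15, rose by 0.45 on the log2 scale (0.69 with the GC trend removed), and AC016739.1, a copy of RPLP1, rose by 0.39. RPS15 encodes a small-subunit protein and RPLP1 a protein of the acidic stalk. AL450405.1, a copy of the large-subunit gene RPL29, had 478, 257 and 349 in ACh, against 676, 588 and 698 in Control. The ACh libraries spread widely but stayed under every Control library, and the log2 fold change was -0.90 (SE 0.13, limma adjusted p = 2.38e-05).

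AC005912.1, a copy of the small-subunit gene RPS27, had 201, 214 and 174 in ACh, against 246, 261 and 364 in Control. It fell by 0.55 (SE 0.12, limma adjusted p = 0.000831) and lies within TSPAN9 on the opposite strand. AC116533.1, a copy of RPL36A, had 1009, 967 and 1065 in ACh, against 1051, 1193 and 1211 in Control, and it fell by 0.18 (SE 0.06, limma adjusted p = 0.00592). Its groups overlapped, and with equal totals over the listed genes its value was -0.10 and it was not called, whereas with the GC trend removed it was -0.33 and called.

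The other parent families were smaller, and the ferritin copies come first among them. Beside the family counts below, 69.4% of all 108 other pseudogenes had the higher mean in ACh. Of all listed genes 28.8% were called higher and 35.0% lower. FTH1 encodes the heavy chain of ferritin, which stores iron, and its 3 listed processed copies all had the higher mean in ACh. FTH1P7 had 255, 181 and 313 in ACh, against 172, 162 and 139 in Control (log2 fold change 0.63, SE 0.15, limma adjusted p = 0.000922), and its groups were apart. FTH1P8 had 69.7, 72.4 and 89.1 in ACh, against 42.4, 54.8 and 63.7 in Control, and FTH1P11 had 17.2, 20.4 and 16.8 in ACh, against 6.91, 5.07 and 8.45 in Control. Both of those have a deposited adjusted p of 1 and were not called. FTH1 itself had 43030, 40021 and 41997 in ACh, against 60197, 66778 and 63725 in Control, and fell by 0.61 (SE 0.05, limma adjusted p = 2.21e-08).

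The list of cytoskeleton and keratin parents, which does not hold every cytoskeletal gene, had 4 pseudogenes here. All 4 had the higher mean in ACh, 2 of them rose and the other 2 could not be called. TUBBP1, a copy of the beta-tubulin gene TUBB, had 214, 218 and 242 in ACh, against 155, 126 and 124 in Control (log2 fold change 0.74, SE 0.12, limma adjusted p = 3.52e-05). AP002784.2, a copy of ARPC3, whose protein belongs to the complex that branches actin filaments, rose by 0.61. PFN1P1, a copy of the actin-binding profilin gene, had 52.5, 45.3 and 52.4 in ACh, against 26.7, 19.3 and 12.3 in Control. It lay apart in the groups but was not called, and neither was CALM2P2, a copy of a calmodulin gene.

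The list of chromatin and nuclear protein families held 12 pseudogenes, of which 9 had the higher mean in ACh, 2 rose and none fell. That is near the 69.4% of all 108 other pseudogenes with the higher mean in ACh, and 7 of the 12 could not be called. HMGB1P5 copies the gene of a DNA-bending chromatin protein. It had 1200, 1249 and 1218 in ACh, against 1039, 1015 and 1017 in Control, with little spread and no overlap (log2 fold change 0.26, SE 0.05, limma adjusted p = 0.00012). HNRNPKP4, from the gene of an RNA-binding protein, rose by 0.43. With the GC trend removed HMGB1P5 was at 0.04 and HNRNPKP4 at 0.23, and neither was called. The copies of YBX1, SERBP1 and PTMA had the lower mean in ACh and were not called.

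The 2 listed copies of PGAM1, which encodes a glycolytic mutase, went in opposite directions. AC078819.1 had 227, 257 and 245 in ACh, against 207, 176 and 144 in Control, and rose by 0.48 (SE 0.12, limma adjusted p = 0.00147). AC012085.1 had 320, 386 and 241 in ACh, against 371, 425 and 428 in Control, and fell by 0.39 (SE 0.12, limma adjusted p = 0.00494) with overlapping groups. With the GC trend removed AC012085.1 was at -0.28 and was not called. Both lie on chromosome 12, and the difference between them was not tested. LDHAP3, a copy of the lactate dehydrogenase gene, had 4.29, 10.2 and 13.6 in ACh, against 3.95, 1.01 and 0.768 in Control, and was not called.

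The list of chaperone parents matched 3 pseudogenes, PPIAP22, PPIAP31 and HSPE1P3, which all had the higher mean in ACh. None was called, but 2 of them could not be called. HSP90AB3P, named like a copy of an HSP90 chaperone gene but not matched by the list, had 138, 135 and 128 in ACh, against 107, 86.2 and 105 in Control, and was not called either. PPIAP22, a copy of the cyclophilin A gene, had 173, 209 and 168 in ACh, against 102, 114 and 177 in Control, where 1 Control library reached into the ACh range. EIF4BP3, the only pseudogene from the list of translation factor families, had 93.3, 72.4 and 106 in ACh, against 40.5, 63.9 and 39.9 in Control, and was not called. EIF4HP1, whose parent stimulates the helicase of translation initiation, was not on that list and rose by 0.49.

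Nuclear copies of mitochondrial genes arise when pieces of mitochondrial DNA are inserted into chromosomes, and 3 were listed. MTCO1P12 had 427, 374 and 448 in ACh, against 420, 621 and 570 in Control, with overlap. It fell by 0.35 (SE 0.11, limma adjusted p = 0.00513), and without Control replicate 2 the value was -0.24 and it was not called. With the GC trend removed it was -0.57 and was called. MTND4P12 had 20.4, 21.5 and 29.3 in ACh, against 101, 23.3 and 60.7 in Control, and MTND5P28 had 4.29, 11.3 and 8.38 in ACh, against 0, 2.03 and 3.07 in Control. Neither was called.

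Processed and unprocessed pseudogenes were also counted apart. Of 106 processed ones 78 had the higher mean in ACh (73.6%), 17 rose and 11 fell, and 60 could not be called. Of 26 unprocessed ones 12 had the higher mean in ACh (46.2%), 1 rose and 5 fell, and 14 could not be called. Over all listed genes 48.3% had the higher mean in ACh, 28.8% were called higher and 35.0% lower. From 100 to under 1000 normalised counts, 23 of 33 processed and 1 of 9 unprocessed pseudogenes had the higher mean in ACh, beside 53.5% of the other listed genes at that level. That contrast was noticed in these values and was not tested.

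The 3 unprocessed copies from the WASH family, whose active genes drive actin branching on endosomes, were all lower in every ACh library than in any Control library. Over all listed genes the groups did not overlap in 93.0%, so this separation is near the background. WASH3P had 410, 454 and 421 in ACh, against 511, 540 and 539 in Control, and FO538757.1 had 108, 105 and 97.5 in ACh, against 162, 208 and 156 in Control. These 2 fell by 0.31 (SE 0.07, limma adjusted p = 0.000815) and by 0.74 (SE 0.13, limma adjusted p = 0.000101), whereas WASH6P, with 83.6, 88.2 and 80.7 in ACh, against 106, 123 and 114 in Control, was not called. Copies of this family at chromosome ends are near-identical, so the 3 values may share reads.

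TMEM191A, annotated as an unprocessed pseudogene of a membrane protein gene, fell by 0.57, with 74, 84.9 and 75.5 in ACh, against 121, 127 and 102 in Control. AC138932.1, a copy of part of the polycystin gene PKD1, had 192, 184 and 198 in ACh, against 254, 254 and 296 in Control, and fell by 0.48, or by 0.29 with the GC trend removed. The single unprocessed pseudogene that rose was SMG1P1, a copy of part of the gene for a kinase of nonsense-mediated decay. It had 287, 374 and 390 in ACh, against 269, 275 and 290 in Control, a rise of 0.32 with overlap (SE 0.10, limma adjusted p = 0.00661), and with the GC trend removed it was at 0.14 and not called. CROCCP2, the unprocessed one with the highest mean count, had 607, 651 and 705 in ACh, against 741, 735 and 752 in Control, and was not called.

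The remaining biotypes had 1 gene each. GPX1 encodes glutathione peroxidase, a selenium enzyme that reduces peroxides and is filed as a polymorphic pseudogene. It had 2066, 1981 and 2110 in ACh, against 2366, 2310 and 2311 in Control, and fell by 0.18 (SE 0.04, limma adjusted p = 0.00034). With equal totals over the listed genes its value was -0.10, and with the GC trend removed its sign was reversed, at 0.0053, and it was not called. LINC00634, filed as a unitary pseudogene, had 1.07, 0 and 2.1 in ACh, against 8.88, 8.12 and 4.61 in Control. AC112497.1, filed only as pseudogene, had 12.9, 14.7 and 12.6 in ACh, against 19.7, 33.5 and 26.1 in Control, and neither of these was called.

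A parent gene could be named for 111 of the 135 pseudogenes, and for 61 of them the parent was listed too, 52 parents in all. The pseudogene and its parent differed in the same direction in 34 of the 61 pairs and in opposite directions in 27. Of the 61 pairs 48 had a parent that was lower in ACh. Per kilobase of the gene length given in the file, the parent had the higher level in 56 pairs. Where both genes passed both tests, which held for 18 pairs, 12 moved the same way and 6 moved in opposite ways.

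The 6 called pseudogenes that rose while the parent fell were RPS28P7, RPL3P4, BX679664.3, FTH1P7, TUBBP1 and AC007969.1. RPS28P7 rose by 0.42, where RPS28 averaged 7151 ± 555 in ACh and 9226 ± 211 in Control (SD, n = 3 each) and fell by 0.37. TUBBP1 rose by 0.74, where TUBB averaged 39542 ± 719 in ACh and 43076 ± 782 in Control (SD, n = 3 each) and fell by 0.12. RPL3P4 rose by 0.22, where RPL3 fell by 0.10, and AC007969.1 rose by 0.45, where RPS15 fell by 0.30.

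**Figure D4:**
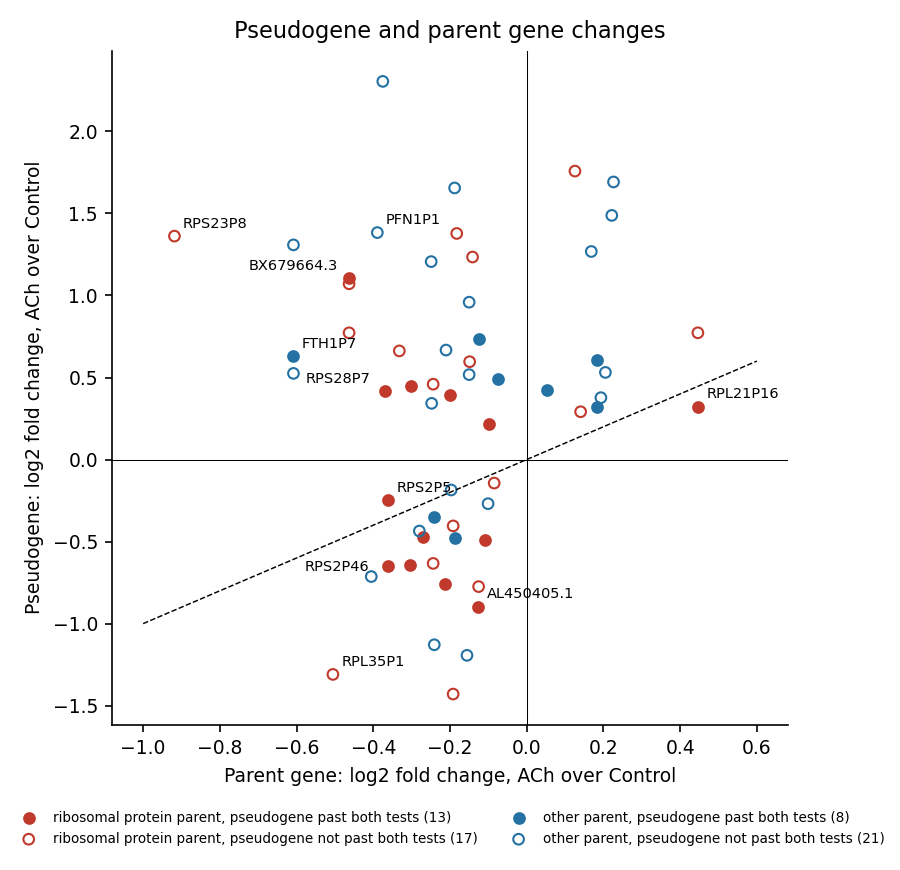
Limma log2 fold change of ACh over Control of the parent gene (x axis) against that of its pseudogene (y axis) in the 59 pairs with counts of the pseudogene in both groups. Filled points are pseudogenes past both tests, red marks a ribosomal protein parent and the dashed line marks equal change. RPS2P5 lies above that line and RPS2P46 below it, and BX679664.3 and FTH1P7 lie above 0 with parents below 0.

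The log2 ratio of a pseudogene to its parent needs no scaling between libraries. In the 45 pairs whose parent follows from the symbol, the ratio was higher in every ACh library than in every Control library for 19, lower for 7, and overlapped for 19. With the parents named in the descriptions added, it was higher for 28, lower for 10 and overlapped for 23 of 61, so 62.3% of the pairs did not overlap. Both genes of a pair were listed because they differed, and no such share was taken for other pairs of listed genes. The 62.3% thus has no background to be read against. With 3 libraries against 3, the exact two-sided permutation test of a ratio cannot go below 0.1, and every pair without overlap has that p. Without Control replicate 1 the pairs with a lower ratio were 11, where 7 had been counted with it. Groups that are apart stay apart when a library is left out, so such counts could not fall.

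At a mean of 1000 or more, all 5 pairs differed in the same direction and the ratio was lower in 4. For RPS2P46 the log2 ratio to RPS2 was -4.16, -4.18 and -4.26 in ACh, against -3.97, -3.91 and -3.85 in Control, so the ratio was lower in every ACh library than in any Control library. For RPS2P5 the ratio to the same parent averaged -1.83 ± 0.12 in ACh and -1.94 ± 0.07 in Control (SD, n = 3 each), and the groups overlapped (exact permutation p = 0.3). RPL6P27, RPL13AP5 and RPL18AP3 had ratios lower by 0.38, 0.34 and 0.20 in ACh, without overlap.

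The 3 listed copies of RPL17 all had a higher ratio to their parent in ACh. RPL17 had 206, 195 and 149 in ACh, against 244, 263 and 245 in Control, and fell by 0.46 (SE 0.11, limma adjusted p = 0.0015). BX679664.3 was above its parent per kilobase, at 960.0 against 87.9 normalised counts per kilobase over the 6 libraries. However, RPL17 had the lowest mean, 217, of the 57 listed protein-coding ribosomal protein genes, whose median was 12668. Whether reads of RPL17 were counted in its copies was not tested, and all 3 ratios share its value. For BX679664.3 the ratio thus need not show the true levels. The log2 ratio of BX679664.3 to RPL17 was 1.68, 1.88 and 2.42 in ACh, against 0.53, 0.39 and 0.37 in Control. AC113935.1 had 114, 117 and 63.9 in ACh, against 52.3, 48.7 and 65.3 in Control, and AC064799.1 had 21.4, 13.6 and 17.8 in ACh, against 11.8, 7.1 and 5.37 in Control. These 2 were not called, and AC113935.1 lies within PIGK, a gene on the opposite strand that itself rose by 0.35.

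For the ferritin copies the log2 ratio to FTH1 was higher in ACh by 1.24 for FTH1P7, by 1.13 for FTH1P8 and by 1.92 for FTH1P11, with no overlap in any of them. FTH1P7 had 369 normalised counts per kilobase over the 6 libraries and FTH1 had 25923. RPS23P8 stood furthest apart among the ribosomal-protein pseudogenes, with a ratio higher by 2.28 in ACh. It had 31.1, 33.9 and 29.3 in ACh, against 7.9, 14.2 and 13.8 in Control, while RPS23, a small-subunit gene, fell by 0.92. RPS23P8 itself was not called. RPS23 had a mean of 2064, the lowest of the 54 listed protein-coding ribosomal protein genes with a mean of 1000 or more. Whether reads of RPS23 were counted in its copies was not tested.

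Some parents have several listed copies. For 12 parents 27 pseudogenes were listed, and the copies of 9 parents had means that differed in 1 direction, higher in ACh for 7 and lower for 2. The copies of PGAM1, RPL24 and RPS27 differed in both directions. RPL24P8 had 118, 93.9 and 112 in ACh, against 88.8, 68 and 78.3 in Control, whereas RPL24P4 had 49.3, 52 and 38.8 in ACh, against 44.4, 74.1 and 115 in Control. The copies of RPL7A, AC044787.1 and AC000089.1, both had the lower mean in ACh, as did those of RPS2, and only the RPS2 copies were called. Copies of a parent may share reads, so they are not independent measurements.

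**Figure D5:**
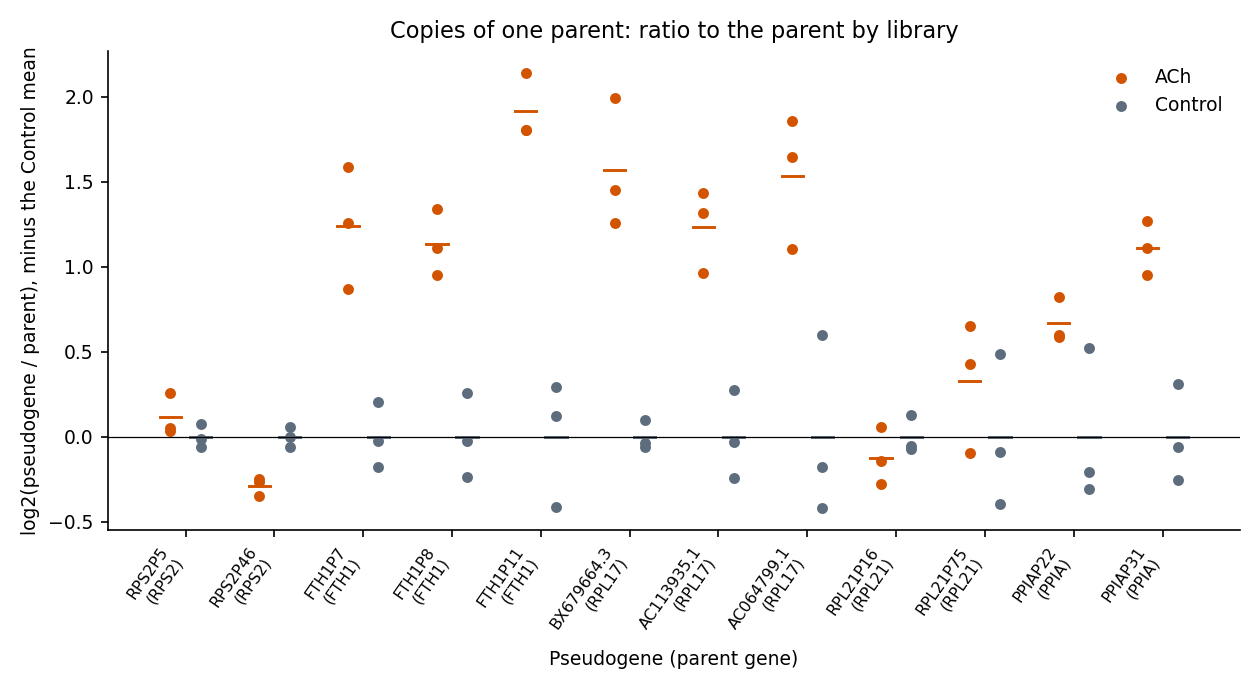
Log2 ratio of a pseudogene to its parent in each library, minus the Control mean of that ratio (y axis), for 12 pseudogenes of 5 parents (x axis, parent in brackets), with ACh libraries left of Control libraries and a bar at each mean of 3. The copies of FTH1 and RPL17 lie higher in every ACh library, RPS2P46 lies lower, and RPS2P5, RPL21P16 and RPL21P75 overlap.

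The least abundant pseudogenes had few counts in any library. For 8 of them the Control libraries are all listed at 0, namely GTF2IRD2P1, YWHAQP6, FDPSP1, NPM1P19, NBPF21P, CYP4Z2P, AL050341.1 and OR7E2P. YWHAQP6, a copy of the gene for an adaptor protein of the 14-3-3 family, had 6.43, 2.26 and 2.1 in ACh. CYP4Z2P, a copy of a cytochrome P450 gene, had 2.14, 2.26 and 5.24 in ACh. No pseudogene is listed at 0 in all ACh libraries, although AL355032.1 is at 0 in 2 of them, with 2.26 in the other and 3.95, 15.2 and 12.3 in Control.

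Of the 76 pseudogenes with a deposited adjusted p of 1, 60 had the higher mean in ACh, which is 78.9%, beside 48.1% of the other listed genes of that kind. Their counts summed to 2281 ± 90.9 in ACh and 1638 ± 87.5 in Control (SD, n = 3 each). The pseudogenes next to that limit were SNRPGP15, with a mean of 86.2, and PIGCP1, with a mean of 78.0.

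Summed over all 135, pseudogene counts were 41861 ± 285 in ACh and 47847 ± 1039 in Control (SD, n = 3 each), a difference of -12.5%. The ribosomal-protein pseudogenes summed to 26168 ± 448 in ACh and 32682 ± 1047 in Control, a difference of -19.9%. The others summed to 15693 ± 343 in ACh and 15166 ± 188 in Control, a difference of 3.48%. With equal totals over the listed genes these 3 differences were -7.50%, -15.3% and 9.38%, and without ACh replicate 3 that of the others was 2.18%. None of the 3 sums overlapped between the groups, and they were not tested, since a few abundant members set them. Protein-coding ribosomal protein genes summed to 766794 ± 21587 in ACh and 887380 ± 35563 in Control, a difference of -13.6%.

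The differences were also set against base composition. Human sequence was not used here, so the GC share of the mouse gene with the parent's symbol stood in for it, and it was found for 109 of the 135 pseudogenes. Across those 109 genes the Spearman correlation of GC with log2 fold change was -0.20, and across 3762 other listed genes it was -0.76. Both are descriptions over genes of the same 6 libraries, and the difference between them was not tested. For a pseudogene the GC share is that of the mouse parent and not its own, so the measures are not alike. With the GC trend over all genes removed, 24 of 31 called pseudogenes remained called in their direction, beside 363 of 2515 other called genes. These shares come from genes with unlike sizes of change, so they cannot be compared directly. Among genes that could be called, the median absolute log2 fold change was 0.43 for pseudogenes and 0.20 for the other listed genes. Calls of RPS2P5, HMGB1P5, AC012085.1, SMG1P1, RPL21P16 and HNRNPKP4 were lost, with the values given beside each above. Of these RPL21P16 kept most of its value (0.28, against 0.32 with the trend kept), and RPS2P5 did not (-0.07, against -0.25 with the trend kept). GPX1 changed sign. The part of base composition in the remaining differences was not tested.

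In all 13 pseudogenes lie over a listed gene, 4 on its strand and 9 on the opposite strand. Among the called ones these are RPS2P46, RPL18AP3 and AC005912.1. TXNRD1 and AC004448.2, which overlap RPL18AP3 and RPS2P46, had log2 fold changes above 0, of 0.07 and 1.86, and neither was called. SNRPEP4, a copy of a splicing factor gene, lies within TINCR, which fell by 0.24, on the same strand. It had 84.7, 58.8 and 119 in ACh, against 74, 46.7 and 39.2 in Control, with overlap, and was not called.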

How the data were processed

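RNA-seq values came from 1 deposited table of 3 ACh and 3 Control libraries of KYSE30 cells. Per the file headers, the deposited values are normalised read counts, a signal in which each library's values are whole multiples of 1 step of 0.768 to 1.13 (within 0.1 of a step), and the table also holds the authors' log2 fold change, p-value and adjusted p-value. Listed genes have an unadjusted p under 0.05, tested on the file. Per the labels' protocols, total RNA went into a SMARTER mRNA-Seq library preparation. Of tools and builds, Bowtie 0.12.2, mm10 and mm8 (both mouse) stand in the submitters' processing notes, although the gene identifiers are human. Coordinates are as the file gives them, and the sources used here give no human build, counting tool or strand setting.

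Here limma 3.58.1 (R 4.3.3) was fitted with a mean-variance trend to log2(value + 1) of all 4195 genes, with a term for group alone and p-values adjusted by Benjamini-Hochberg over all genes. A fold change on this scale understates the change of low genes. The code was tested on simulated data. A change was called at 0.05 in limma and in the authors' adjusted p, where a deposited value of exactly 1 was taken as not adjusted. Log2 ratios to the parent gene used each value + 1, with the exact permutation test (SciPy 1.17.1). The parent was the symbol without its final P and number, or the gene in the description. Values per kilobase are normalised counts over the deposited gene length. GC came from the mouse GENCODE M21 annotation, by parent symbol and RefSeq synonyms. No 2 libraries shared an equal value above 0, and no sequences are shown.

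The members, lists and tests were chosen with earlier results of these data known. Genes named in full were, in each class, the 6 with the highest mean, the 4 largest called rises and falls, the 3 most abundant called members opposite to a called parent, and families or biotypes of 3 or fewer. Other genes were named after their values were seen. Alternatives left out each library, and changed the pseudocount, the filter on low genes, the scaling, the tests combined, the classes and a GC trend.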

Additional observations from a re-analysis of the deposited data

How the results depend on the processing

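Leaving out each library in turn gave 17 to 18 pseudogenes higher and 16 to 17 lower in ACh, with 3 to 4 and 7 of each kind for ribosomal-protein pseudogenes and 14 and 9 to 10 for the others. In these fits and with the replicate block only limma was run again, and the authors' adjusted p stayed that of all 6 libraries. Counts past both tests could thus not exceed 18 and 17, and had little room to fall, since limma passed 99.6% of listed genes. They say little about stability. RPL21P16 was lost without ACh replicate 2, at 0.23, and MTCO1P12 without Control replicate 2, at -0.24. The ratio to the parent was higher in 20 to 24 and lower in 7 to 11 pairs, counts that can only stay or rise when a library is left out. The summed levels differed by -13.3 to -11.5% for all, -20.8 to -18.4% for ribosomal-protein and 2.18 to 4.22% for other pseudogenes. The labels do not say whether ACh and Control libraries of the same replicate number share a culture or batch. Same-number correlations of deviations were 0.09, 0.10 and 0.19, each library correlating best with its own number, so a pairing was not settled. The replicate block gave 2677 called genes, as without it, and 35 of 35 called pseudogenes were shared.

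By limma alone, 88 pseudogenes were higher and 45 lower (ribosomal-protein 15 and 12, others 73 and 33), where 99.6% of all listed genes were called. Without the lowest 25% of genes by mean, 3 were higher and 9 lower (ribosomal-protein 2 higher, others 1 higher and 2 lower), since that filter leaves few pseudogenes to test. With the GC trend removed 13 were higher and 11 lower, where the same genes with the trend kept gave 17 and 14. For the other pseudogenes it was 10 higher and 5 lower, where those genes gave 13 and 7. GPX1 was then at 0.0053 and CROCCP2 at 0.0685, the opposite sign to that reported. With equal totals over the listed genes, all genes shifted by 0.08 (log2), no pseudogene changed direction, and the summed levels differed by -7.50% for all, -15.3% for ribosomal-protein and 9.38% for other pseudogenes. Counting the described copies as ribosomal-protein pseudogenes, a class added after seeing the data, gave 8 higher and 10 lower, where 4 and 7 were reported. With level limits of 50 and 500 in place of the reported ones, 49 of 61, 37 of 58 and 4 of 16 pseudogenes had the higher mean in ACh, from the lowest level up. Without RPS2P5 the ribosomal-protein sum differed by -23.7%. The cause was not tested where none is named. Tests on recovered counts (edgeR and DESeq2) were not run, since too few low values per Control library were left to recover reads. Low counts limit what can be said of single pseudogenes with a mean of at most 78.0.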
